A study of Mus musculus with 2 samples.

Results

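The Olig and Bhlhe22 family is a branch of the basic helix-loop-helix (bHLH) transcription factors, and its 5 mouse genes are Olig1, Olig2, Olig3, Bhlhe22 and Bhlhe23. They were taken by symbol from the GENCODE M21 annotation of the mm10 genome, and all 5 were found among the 21728 protein-coding genes used, those of chromosome X and of chromosomes 1 to 19. Chromatin accessibility was measured by DNase-seq, in which DNase I cuts DNA where nucleosomes leave it exposed. The material was whole mouse embryos at 11 days, of the strain B6NCrl, with both sexes pooled, in 1 group of 2 biological replicates. No treatment, genotype or stage was varied, so each value below is given for both replicates and set beside the same value over all genes. The labels give the replicates separate biosample entries and a shared donor entry. A whole embryo mixes all its tissues, so a region open in few cells and a region weakly open in many cannot be told apart.

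bHLH factors bind DNA as dimers at E-boxes, the sequence CANNTG, through a basic region followed by a helix, a loop and another helix. Olig2 specifies motor neuron progenitors in the ventral spinal cord and later, with Olig1, the oligodendrocytes that myelinate axons. Olig3 acts in dorsal neural progenitors, Bhlhe22 in retinal, cortical and dorsal horn neurons together with its partner Prdm8, and Bhlhe23 in rod bipolar cells of the retina.

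Olig1 (ENSMUSG00000046160.6) lies at chr16:91269772-91271933 on the plus strand and has 1 exon. Olig2 (ENSMUSG00000039830.9), at chr16:91225457-91228677 on the plus strand, has 2 exons, and its transcription start site (TSS) lies 44.3 kb from that of Olig1. Olig3 (ENSMUSG00000045591.6) lies at chr10:19356533-19358604 on the plus strand, Bhlhe22 (ENSMUSG00000025128.7) at chr3:18054174-18057517 on the plus strand and Bhlhe23 (ENSMUSG00000045493.4) at chr2:180774381-180776900 on the minus strand, each with 1 exon. Each gene has 1 annotated transcript. The deposited peaks are 150 bp wide.

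The peaks nearest to the start sites of 4 members show sequence that was open in both replicates. They are given as the plus strand of mm10 (RefSeq GRCm38.p6), as called in replicate 1, with E-boxes and the box CCAAT (on either strand, so also ATTGG) in capitals. For Bhlhe23 only the stretch outside the transcript is shown.
Olig1, chr16:91269616-91269765: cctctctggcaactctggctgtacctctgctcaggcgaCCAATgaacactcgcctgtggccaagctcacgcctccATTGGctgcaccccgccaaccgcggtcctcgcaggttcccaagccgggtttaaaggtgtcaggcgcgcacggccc
Olig2, chr16:91225296-91225445: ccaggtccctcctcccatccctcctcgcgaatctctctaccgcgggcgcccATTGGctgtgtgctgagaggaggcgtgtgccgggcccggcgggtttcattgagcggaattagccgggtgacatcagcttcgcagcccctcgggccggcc
Olig3, chr10:19356196-19356345: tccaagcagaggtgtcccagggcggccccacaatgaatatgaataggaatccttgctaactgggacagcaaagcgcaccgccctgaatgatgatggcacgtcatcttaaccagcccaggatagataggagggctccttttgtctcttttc
Bhlhe23, chr2:180776901-180777025: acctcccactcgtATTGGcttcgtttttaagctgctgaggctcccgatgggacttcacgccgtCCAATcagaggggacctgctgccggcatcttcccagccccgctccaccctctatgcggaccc

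The best-ranked shared peak of each gene farther than 1 kb from every protein-coding TSS is shown for comparison. A shared peak is a replicate 1 peak that overlaps a replicate 2 peak. To these is added the peak 2.77 kb upstream of Bhlhe23. It is the only 1 of the 73 such peaks in the 5 loci with an exact match to the CTCF core motif. That is 1.37%, against 3.63% of such peaks of all genes. Capitals mark E-boxes and matches to that core with at most 1 mismatch, again on either strand of the plus-strand sequence.
Olig1, chr16:91314236-91314385: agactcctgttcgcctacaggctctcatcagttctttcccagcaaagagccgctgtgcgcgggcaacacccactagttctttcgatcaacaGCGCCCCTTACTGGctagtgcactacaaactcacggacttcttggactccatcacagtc
Olig2, chr16:91192776-91192925: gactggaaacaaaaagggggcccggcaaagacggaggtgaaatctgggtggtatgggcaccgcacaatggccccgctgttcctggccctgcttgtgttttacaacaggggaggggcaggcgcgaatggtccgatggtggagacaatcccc
Olig3, chr10:19310136-19310285: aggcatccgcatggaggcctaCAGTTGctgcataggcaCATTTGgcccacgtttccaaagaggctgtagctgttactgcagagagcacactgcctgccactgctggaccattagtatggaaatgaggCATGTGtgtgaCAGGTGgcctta
Bhlhe22, chr3:18055416-18055565: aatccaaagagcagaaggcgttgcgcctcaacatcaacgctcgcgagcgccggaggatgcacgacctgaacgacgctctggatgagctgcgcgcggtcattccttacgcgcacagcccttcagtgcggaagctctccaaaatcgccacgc
Bhlhe23, chr2:180756016-180756165: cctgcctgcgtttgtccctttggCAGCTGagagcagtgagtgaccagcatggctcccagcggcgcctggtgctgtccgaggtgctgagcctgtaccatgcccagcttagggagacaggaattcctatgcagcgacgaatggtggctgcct
Bhlhe23, chr2:180779596-180779745: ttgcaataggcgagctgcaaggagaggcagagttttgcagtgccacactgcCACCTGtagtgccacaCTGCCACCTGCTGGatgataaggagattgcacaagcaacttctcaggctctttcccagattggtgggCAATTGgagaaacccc

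The tissue label was checked on marker promoters. A peak within 500 bp of a start site was present in both replicates at 4 of 4 genes of neural progenitors, 3 of 3 of neurons, 3 of 3 of heart, 3 of 3 of skeletal muscle and 3 of 3 of mesenchyme. The counts were 2 of 3 for endothelium, 2 of 3 for hepatoblasts, 1 of 3 for erythroid cells and 0 of 3 for macrophages. Replicate 1 had 204697 peaks and replicate 2 had 231103, which is 1.13 times as many. Of the replicate 1 peaks 79.5% were shared. Read counts were not used here, so the depth behind each peak is unknown. With 1 group of 2 libraries no contrast between conditions could be tested, and the spread between the replicates is the measure of error.

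All 5 promoters were open in both replicates. Over all protein-coding genes 70.3% had a promoter peak in both replicates, so 5 of 5 says little beside that background. The same 5 were found at the 5′-most TSS, where the background was 65.2%. The height of the promoter peak differed among the genes more than its presence did.

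The deposited score of a peak is a whole number from 1 to 150, used here only to rank peaks within a list. The Olig2 peak 86 bp upstream of the TSS scored 108 in replicate 1 and 121 in replicate 2, at percentiles 92.5 and 94.4 of the lists. Olig2 was the only member with a promoter peak among the best-scoring 10% of the list in both replicates, which 52.9% of genes had. The Olig1 peak 81 bp upstream scored 103 and 104, at percentiles 91.4 and 89.9, and so fell just short in replicate 2. Its other promoter peak, 439 bp downstream of the TSS, scored 66 and 92.

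At Olig3 and the Bhlhe genes the best promoter peaks ranked lower than those of Olig1 and Olig2. At Olig3 the peak 262 bp upstream scored 64 and 81, the only shared promoter peak of this gene. At Bhlhe22 the peak over the TSS scored 63 and 82, and the highest-ranked one, 377 bp downstream in replicate 1, scored 66 and 90. At Bhlhe23 the peak 51 bp upstream scored 41 and 48, and the peak 469 bp downstream scored 38 and 64. By the percentile of the best promoter peak in each replicate, averaged over both, the order was Olig2 (93.5), Olig1 (90.6), Bhlhe22 (78.7), Olig3 (75.4) and Bhlhe23 (55.1, where the best peak was the upstream one in replicate 1 and the downstream one in replicate 2). The median gene with such a peak in both replicates stood at 96.1, so all 5 lay below it. Of the genes with such a peak, only 4.79% ranked lower than Bhlhe23, 10.3% lower than Olig3 and 12.1% lower than Bhlhe22. The shares were 23.9% for Olig1 and 31.9% for Olig2. Olig3 and Bhlhe22 stood close, at 71.8 against 73.4 in replicate 1 and 79.0 against 84.0 in replicate 2. The start sites differed in CpG content: observed over expected CpG was 0.943 at Bhlhe23, 0.820 at Olig1, 0.756 at Olig2, 0.638 at Bhlhe22 and 0.536 at Olig3, so Olig3 alone lay below the median of 0.558 over all genes.

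In the printed promoter sequences, CCAAT stands in the peaks of Olig1, Olig2 and Bhlhe23. Counting whole peaks, 4 of the 9 shared promoter peaks of the family held CCAAT on either strand (44.4%), against 20.5% of 27620 shared promoter peaks of all genes. This box was searched after the sequences had been seen, and a match describes letters, not a bound factor.

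**Figure D1:**
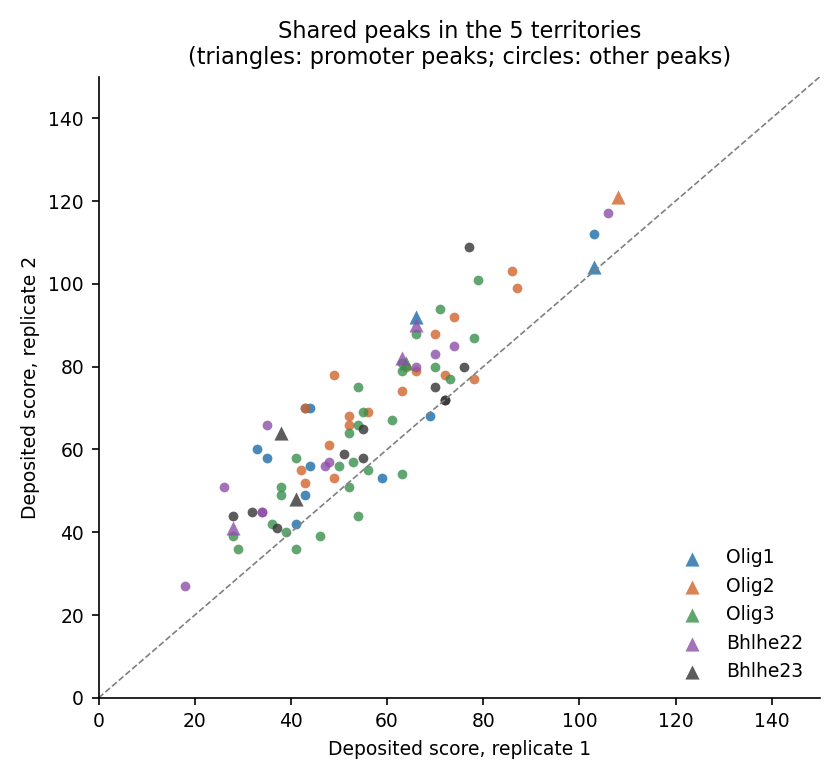
Deposited scores of the shared peaks in the 5 territories, replicate 1 on the x axis and replicate 2 on the y axis, coloured by gene, with triangles for promoter peaks and circles for other peaks. The promoter peak of Olig2 (108 and 121) is the highest triangle, the Bhlhe23 promoter peaks lie among the lower ones, and most points sit above the dashed line of equal scores.

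Gene bodies were open in 4 of the 5 genes. Olig1, Olig2, Bhlhe22 and Bhlhe23 had a shared peak in the gene body, as 75.1% of all genes did, and Olig3 had none. The count of 4 of 5 says little beside that share, which covers gene bodies of every length. Replicate 1 had 5 peaks in the body of Olig1, 3 in Olig2, 0 in Olig3, 4 in Bhlhe22 and 2 in Bhlhe23. Replicate 2 had 4, 7, 2, 6 and 2 in the same order, so only Bhlhe23 had the same count in both replicates. Hotspots, the broader regions of enriched cutting, covered 62.2% of the Bhlhe22 body in both replicates, 59.8% of Olig1, 40.0% of Olig2, 17.7% of Bhlhe23 and 0% of Olig3.

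Coding sequence was under shared peaks in the same 4 genes, which 31.2% of all genes were. In 3 of them, peaks of both replicates touched the conserved stretches at either end of the bHLH domain. The alignable windows of 60 bp that were most alike among the 5 coding sequences, chosen after the data were seen, are printed on the coding strand with bases identical in all 5 in capitals. The window over the basic region and the first helix comes first.
Olig1, chr16:91270170-91270229: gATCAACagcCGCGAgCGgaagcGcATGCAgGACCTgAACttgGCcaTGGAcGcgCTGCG
Olig2, chr16:91226735-91226794: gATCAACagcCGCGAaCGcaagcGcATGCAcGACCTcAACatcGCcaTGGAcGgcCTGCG
Olig3, chr10:19356892-19356951: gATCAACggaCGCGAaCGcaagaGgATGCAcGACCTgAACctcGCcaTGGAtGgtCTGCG
Bhlhe22, chr3:18055447-18055506: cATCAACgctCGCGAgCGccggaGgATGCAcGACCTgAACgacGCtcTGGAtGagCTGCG
Bhlhe23, chr2:180776379-180776438: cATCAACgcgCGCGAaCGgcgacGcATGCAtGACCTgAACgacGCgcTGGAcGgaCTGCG
The window over the second helix follows.
Olig1, chr16:91270274-91270333: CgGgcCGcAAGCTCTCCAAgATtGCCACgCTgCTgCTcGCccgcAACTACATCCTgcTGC
Olig2, chr16:91226824-91226883: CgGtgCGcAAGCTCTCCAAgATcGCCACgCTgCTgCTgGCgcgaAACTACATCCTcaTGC
Olig3, chr10:19356981-19357040: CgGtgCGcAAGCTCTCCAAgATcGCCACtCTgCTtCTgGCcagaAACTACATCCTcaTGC
Bhlhe22, chr3:18055536-18055595: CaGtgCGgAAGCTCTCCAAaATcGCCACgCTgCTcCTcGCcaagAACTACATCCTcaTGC
Bhlhe23, chr2:180776290-180776349: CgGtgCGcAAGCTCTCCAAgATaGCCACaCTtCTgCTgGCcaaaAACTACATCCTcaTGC

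In the basic region window 39 of 60 bases were the same in all 5 genes, and the 10 pairs were 71.7% to 86.7% identical. In the second helix window 44 of 60 were the same, with pairs 80% to 93.3% identical. A peak overlapped the basic region window in both replicates at Olig1 (scores 66 and 92), Olig2 (66 and 79), Bhlhe22 (106 and 117) and Bhlhe23 (38 and 64). At Olig3 a peak of score 51 covered it in replicate 2 and no peak did in replicate 1. The second helix window was touched in both replicates at Olig1, Olig2 and Bhlhe22, in replicate 2 alone at Bhlhe23, and in neither at Olig3. Counted in the same way, by any overlap, 10.9% of all 60 bp windows of coding sequence 300 to 1500 bp downstream of a TSS, the range that holds these windows, were touched in both replicates. The overlap was as short as 12 bp, at the second helix window of Olig1. The longest run of identical bases between any 2 of the 5 coding sequences was 29 bp, between Olig2 and Olig3. How reads mapping to several places were treated is not stated in the sources used here.

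The territory of a gene, the bases for which its 5′-most TSS is the closest among protein-coding genes, measured 73.7 kb for Olig1, 87.3 kb for Olig2, 288 kb for Olig3, 147 kb for Bhlhe22 and 97.8 kb for Bhlhe23. It assigns by distance alone, and the border between Olig1 and Olig2 is the midpoint of their start sites. The 5 territories held 99 peaks in replicate 1 and 139 in replicate 2. Of the former 87 were shared (87.9%). Distal peaks, those over 1 kb from every protein-coding TSS, made up 73 of the shared ones.

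Olig2 had the densest distal landscape of the family. Its 17 shared distal peaks gave 19.5 per 100 kb, and 3.90% of all territories were as dense. Single-replicate densities were 21.8 and 35.5 per 100 kb, with a mean of 28.6 ± 9.72 (SD, n = 2). Bhlhe23 had 11 shared distal peaks (11.2 per 100 kb, and 14.3 in each replicate), Olig1 had 8 (10.9, with 15.6 ± 4.80, SD, n = 2) and Olig3 had 28 (9.72, with 14.1 ± 4.66, SD, n = 2). Bhlhe22 was lowest with 9 (6.10, with 7.80 ± 0.480, SD, n = 2). Olig1 was denser than Olig3 in replicate 1 (12.2 against 10.8) and also in replicate 2, while Bhlhe23 lay above both in replicate 1 and below both in replicate 2. All territories together had 4.90 per 100 kb, with a median of 4.12, and 18.4% reached 10 per 100 kb, as 3 members did, with Olig3 just below. That value of 10 was chosen after the data were seen.

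**Figure D2:**
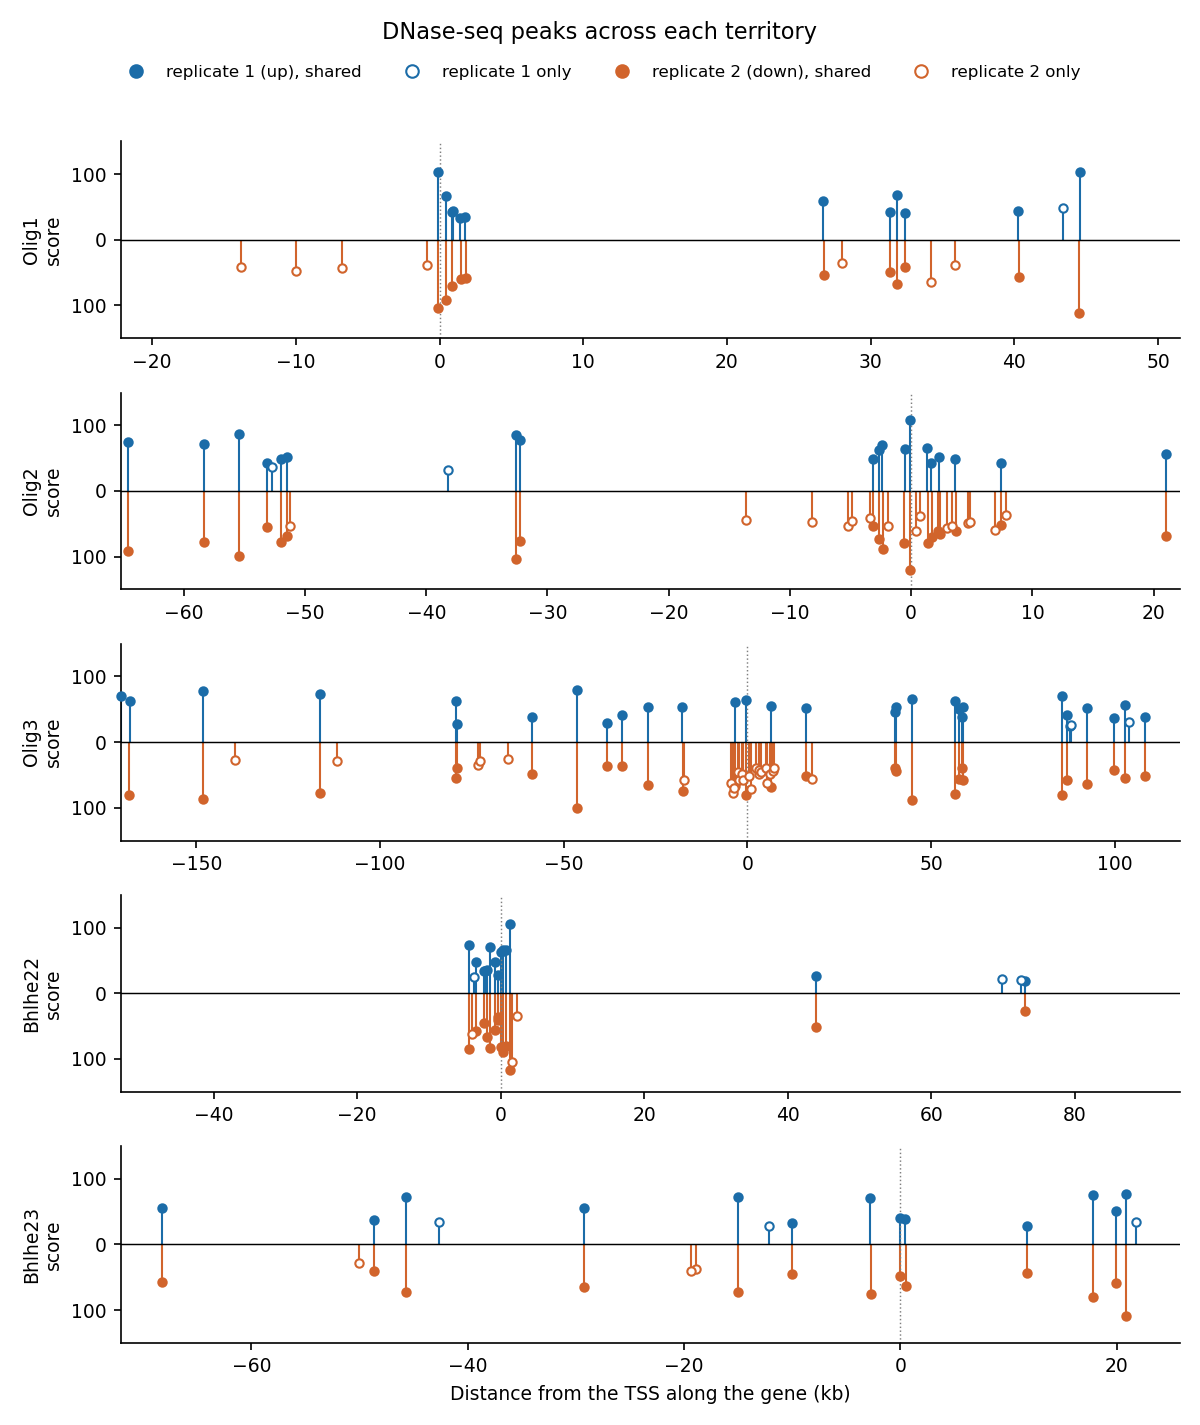
Peaks across each territory, placed by distance from the TSS along the gene in kb (x axis) and by deposited score (y axis), with replicate 1 upward and replicate 2 downward. Filled points are shared and open points were called in 1 replicate only. Bhlhe22 peaks crowd at the gene, while Olig3 peaks reach 170 kb upstream.

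The distal peaks were laid out differently at each gene, as the map of peaks across the territories shows. At Bhlhe22, 7 of the 9 lay within 10 kb of the TSS. The best of them, 1.32 kb downstream and inside the coding exon over the basic region, scored 106 and 117, above every promoter peak of this gene. The others named by rank lay 4.38 kb upstream (74 and 85) and 1.46 kb upstream (70 and 83). A shared hotspot of 2360 bp spanned the promoter and the coding exon, the widest in the 5 territories. The remaining 2 shared distal peaks stood in introns of Cyp7b1, a steroid hydroxylase gene whose body reaches into the territory.

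Olig2 combined a near and a far group. Within 10 kb lay 8 of its 17 shared distal peaks, and 6 lay more than 50 kb upstream. The best were 32.6 kb upstream (86 and 103), 55.4 kb upstream (87 and 99) and 64.6 kb upstream (74 and 92). A shared hotspot of 1143 bp covered its promoter.

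Olig1 had all 8 shared distal peaks on its downstream side, away from Olig2. The best, 44.5 kb downstream, scored 103 and 112, as high as its promoter peak. Others lay 31.8 kb (69 and 68) and 26.7 kb downstream (59 and 53), and these 3 fall inside the long noncoding gene Gm15966, which runs on the opposite strand. A shared hotspot of 931 bp covered the promoter of Olig1.

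Olig3 stood in the widest territory, and its shared peaks were mostly remote. Only 2 of the 28 shared distal peaks lay within 10 kb of its TSS and 17 lay beyond 50 kb. The best was 46.3 kb upstream (79 and 101), inside the long noncoding gene Gm33056, and the printed sequence holds 4 E-boxes. Next came peaks 148 kb upstream (78 and 87) and 170 kb upstream (71 and 94). The widest shared hotspot that reaches into its territory, 692 bp, lay at that far edge and not at the promoter. This hotspot and the peak 170 kb upstream both cross the territory border. That border is the midpoint to the Tnfaip3 TSS, so the site is about as near to Tnfaip3 as to Olig3.

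Bhlhe23 had 1 shared distal peak within 10 kb, 2.77 kb upstream (70 and 75). Higher-ranked were peaks 20.8 kb downstream (77 and 109) and 17.8 kb downstream (76 and 80). The peak 20.8 kb downstream lies nearer, at 17817 bp, to an annotated TSS of another protein-coding gene. With territories drawn by any TSS, Bhlhe23 had 9 shared distal peaks in place of 11. All 3 distal peaks named here scored above both promoter peaks of Bhlhe23 in both replicates. The widest shared hotspot of Bhlhe23 was 411 bp, the narrowest such value of the 5.

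Across the family 65 of the 73 shared distal peaks lay between protein-coding genes, 3 in coding exons, 3 in UTR exons and 2 in introns. The same shares over all genes were not computed here, so these counts only describe the layout. The 73 peaks fell evenly on either side, 37 upstream and 36 downstream. None was made mostly of repeats, against 4.30% of the 125447 shared distal peaks of all genes. The median GC content was 53.3% against 51.3%, and the median replicate 1 score 54 against 46.

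The motifs searched were at or near their share over all shared distal peaks. E-boxes (CANNTG) stood in 44 of 73 peaks (60.3%, against 64.3% overall). The E-box CATATG was in 1 peak (1.37% against 2.85%), CAGATG in 12 (16.4% against 18.7%) and CAGCTG in 13 (17.8% against 18.5%), each also a case of CANNTG. The homeodomain core TAATTA was in 4 peaks (5.48% against 3.35%), of which 3 belong to Olig3. The Sox-type words ACAAAG and ACAATG were in 11 (15.1% against 14.5%) and 7 (9.59% against 8.24%). The Gli-type word GACCACCC was in 0 peaks (0.552% overall) and the GC box GGGCGG in 6 (8.22% against 8.28%). Both strands were read, and the absence of a word says only that these letters are not in these windows.

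The CTCF core, with at most 1 mismatch, was in 9 of the 73 (12.3% against 12.4% overall). These 9 include the outermost high-scoring peaks of 3 genes, 44.5 kb downstream of Olig1, 64.6 kb upstream of Olig2 and 170 kb upstream of Olig3. The rest lay farther inside the territories, 116 and 58.7 kb upstream of Olig3 and from 2.77 to 29.3 kb upstream of Bhlhe23. Which peak is outermost depends on where the territory border falls, and the outermost Olig3 peak crosses that border. Among members' peaks at or above percentile 75 of the scores, 6 of 21 had the CTCF core, and 24.4% of all such peaks did. This motif was added after the data were seen.

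The replicates differed most around Olig3 and Olig2. Within 10 kb of the TSS, Olig3 had 3 peaks in replicate 1 and 21 in replicate 2, and Olig2 had 10 and 24. Bhlhe22 had 13 and 15, Olig1 6 and 8, and Bhlhe23 3 and 3. More peaks in replicate 2 were thus found at 4 of 5 members, against 36.6% of all genes. A gain of at least 10 was found at Olig2 and Olig3 and at 0.543% of all genes. A difference as large as that of Olig3 (18) was found at 0.152% of genes and one as large as that of Olig2 (14) at 0.272%. The distance of 10 kb and the gain of 10 were chosen after the data were seen.

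**Figure D3:**
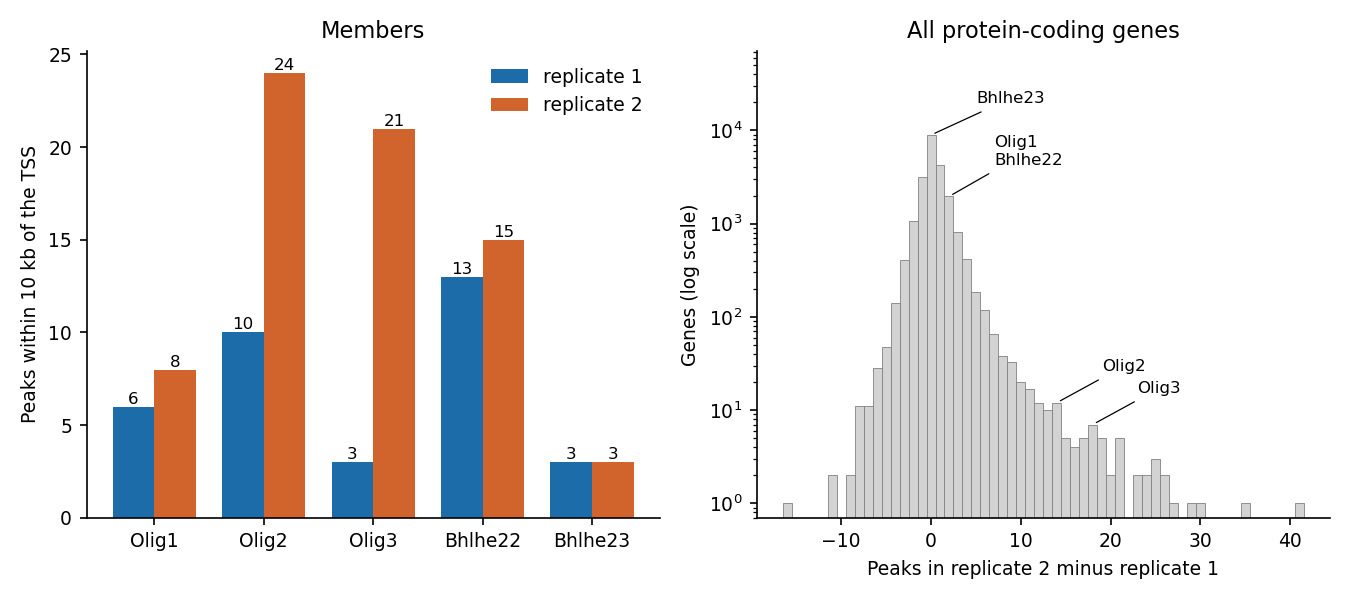
Left, number of peaks within 10 kb of the TSS of each member in replicate 1 (blue) and replicate 2 (orange). Right, the difference between the replicates over all protein-coding genes (x axis) with the number of genes on a log scale (y axis). Olig2 (14) and Olig3 (18) lie in the right tail, while Bhlhe23 (0), Olig1 and Bhlhe22 (2 each) lie near the centre.

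At Olig3 all 18 additional peaks lay from 4.38 kb upstream to 7.18 kb downstream of the TSS, on both sides of the gene and over it. Their scores ran from 39 to 78, and the highest stood near the promoter peak (81 in replicate 2). The 3 peaks that replicate 1 had there, 3.44 kb upstream, at the promoter and 6.52 kb downstream, all reappeared in replicate 2. Beyond 10 kb the replicates were closer: replicate 1 had 29 peaks and replicate 2 had 32. At Olig2 the 13 peaks called in replicate 2 only within 10 kb lay from 8.17 kb upstream to 7.81 kb downstream and scored 37 to 61. Farther out in the Olig2 territory both replicates had 11 peaks, so the replicates differed close to the gene.

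Over the 5 territories 53 peaks were found in replicate 2 only and 12 in replicate 1 only. Of the 53, 25 belonged to Olig3, 15 to Olig2, 7 to Olig1, 3 to Bhlhe22 and 3 to Bhlhe23, and 37 lay within 10 kb of a member's TSS. Their median score was 47, against 35 for all peaks found in replicate 2 only. A replicate 1 hotspot lay under 4 of the 53 (7.55%), against 11.2% of all such peaks, and under none of the 25 at Olig3. Hotspots also covered more of each territory in replicate 2, by the most at Olig2, Olig3 and Olig1. They covered 3.18% of the Olig3 territory in replicate 1 and 6.30% in replicate 2, and 7.35% and 13.3% at Olig2. At Olig1 the values were 4.55% and 7.29%, also higher in replicate 2. At Bhlhe23 they were 4.18% and 4.35%, and at Bhlhe22 4.03% and 4.41%. All territories together had 2.41% and 2.85%.

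The list of replicate 2 is the longer one. When that list was shortened to the length of the replicate 1 list by its best scores, Olig2 kept 24 and Olig3 kept 21 peaks within 10 kb. Peaks called in replicate 2 only were then 15 at Olig2 and 23 at Olig3. The shortening removed only peaks scoring 29 or less, and no peak within 10 kb of these 2 genes scored so low. It therefore does not test what list length or depth contributes there. That was not tested.

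**Figure D4:**
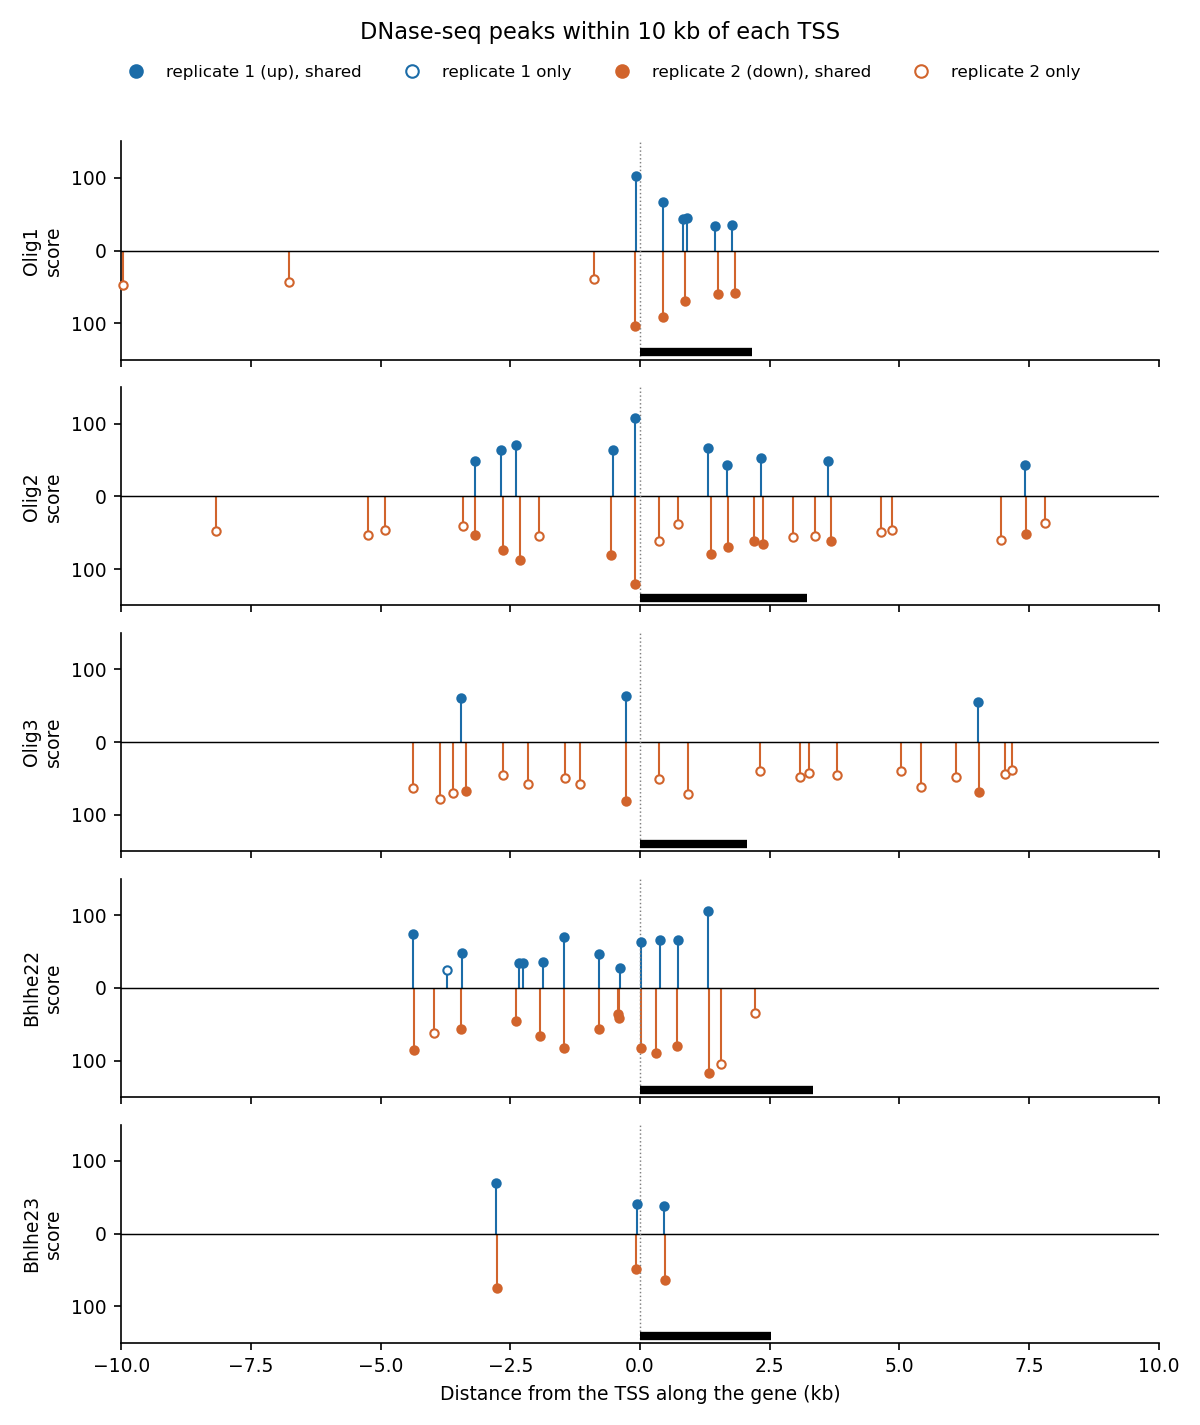
Peaks within 10 kb of each TSS, by distance along the gene in kb (x axis) and deposited score (y axis), replicate 1 upward and replicate 2 downward, with the gene body as a black bar. Open points, called in 1 replicate only, are many at Olig3 (18 in replicate 2) and Olig2 (13) and absent at Bhlhe23.

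Genes that act with the family were described by 5 lists. Promoters of the 12 motor neuron genes, among them Mnx1, Isl1, Isl2 and Lhx3, were open in both replicates in 12 of 12. Of the ventral neural tube list, with Shh, its receptor Ptch1 and the effectors Gli1 and Gli2, 12 of 14 were open. There Nkx2-2, which is expressed ventral to the Olig2 domain, had a promoter peak in replicate 2 only, and Dbx2 had none. Of the dorsal list, with Atoh1, Neurog1 and Gsx1 among others, 22 of 24 were open, and Ptf1a and Gsx2 had a peak in replicate 2 only. Of the related bHLH genes, with Neurog1, Neurog2, Neurog3 and Neurod1, 15 of 16 were open, all but Neurod6. These shares stand against the background of 70.3%.

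The oligodendrocyte and myelin list had 14 of 19 promoters open in both replicates, a share near the background. Open were the early lineage genes Sox8, Sox10, Pdgfra and Cspg4 among others. Genes of myelin stood on both sides: Cldn11, a tight junction gene of myelin named here after its values were seen, had a promoter peak in both replicates, and Mag and Mog were among the 5 genes with none in either.

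**Figure D5:**
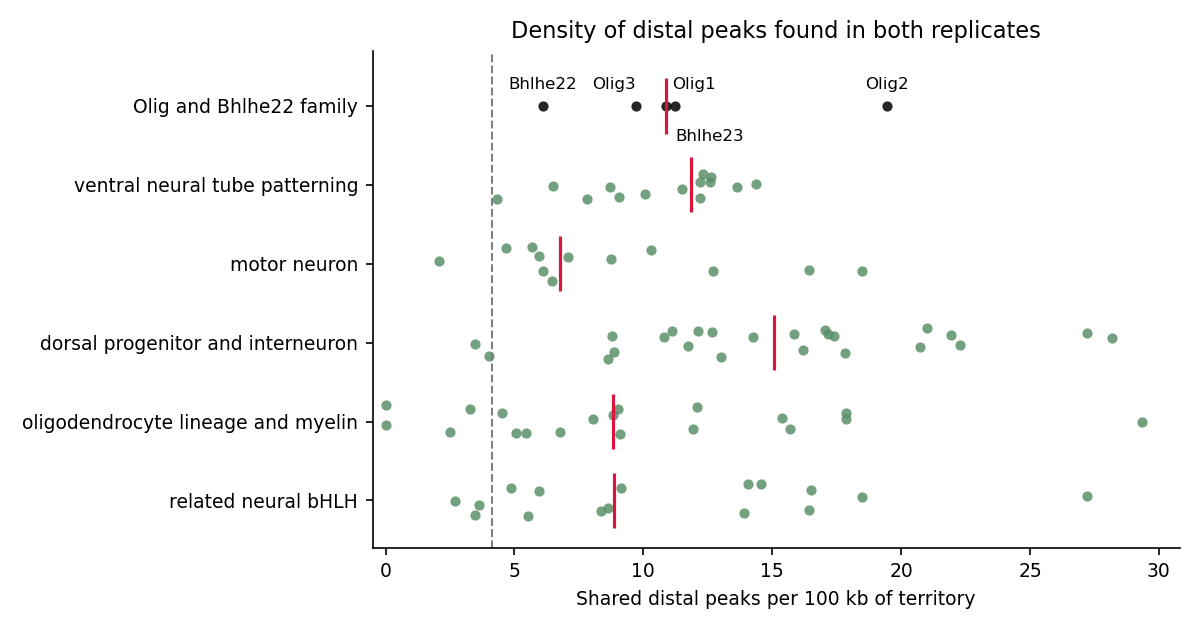
Shared distal peaks per 100 kb of territory (x axis) for each gene (point) of the family and of 5 lists (y axis), with the list median as a red bar and the median of all territories as a dashed line. Olig2 stands at 19.5, Bhlhe22 at 6.10, and the list medians run from 6.76 for motor neuron genes to 15.1 for dorsal genes.

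By density of shared distal peaks, Olig2 with 19.5 per 100 kb lay above the highest gene of the ventral list (14.4) and of the motor neuron list (18.5). It lay below the highest of the dorsal (28.2), the oligodendrocyte and myelin (29.3) and the related bHLH list (27.2). The other 4 members lay within the range of each list. The list medians were 15.1 for dorsal, 11.8 for ventral, 8.87 for related bHLH, 8.81 for oligodendrocyte and myelin and 6.76 for motor neuron genes.

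Peaks within 10 kb of the TSS were more numerous in replicate 2 at 21 of 24 dorsal, 10 of 12 motor neuron, 9 of 14 ventral, 10 of 19 oligodendrocyte and myelin and 7 of 16 related bHLH genes, against the 36.6% of all genes. Gains of at least 10 were found at 11, 2, 3, 0 and 1 of them. Among the genes with such gains, Mnx1, a motor neuron factor, had 3 and 38 peaks and Isl1 6 and 29. Nkx2-2 had 1 and 19, and Gsx2 7 and 37. Genes without such a gain include Isl2 (15 and 16), Lhx3 (8 and 9) and Neurog1 (13 and 13). Of the 28 marker genes of all tissues 6 had more peaks in replicate 2, 11 had fewer and 0 had a gain of 10. Among the markers of neural progenitors 1 of 4 had more, and among those of neurons 0 of 3. Some genes stand in 2 lists, and the lists were chosen with earlier results of these data known.

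By territory length and number of shared distal peaks, the genes most alike were Ergic1 and Cyp26c1 for Olig1, Aym1 and Tpt1 for Olig2, Gm10309 and Tshz2 for Olig3, Sycp2 and Slc1a4 for Bhlhe22, and Sfi1 and Apln for Bhlhe23. The measure was the Euclidean distance between log2 values of both quantities, over all territories and with both replicates combined. Cyp26c1, for example, had 8 shared distal peaks in 73.7 kb, as Olig1 did.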

How the data were processed

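DNase-seq peak and hotspot lists of 2 biological replicates of whole mouse embryos were used. Each list was made per replicate from filtered mm10 alignments, per the file headers and the text deposited with the files, so the replicates were not pooled. Names and versions of the aligner and peak caller were not given in the sources used here. Peaks carry a score deposited by the authors, from 1 to 150, whose construction is not given there either. Hotspots carry a deposited −log10 q value whose highest entry is 100, held by 33.3% and 34.1% of them. Under the members' peaks no hotspot value lay between 6 and 100. An entry of 100 is therefore taken here only as a ceiling and not as a measured q value.

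Computed here were promoter peaks (within 500 bp of an annotated TSS), shared peaks (overlap of at least 1 bp), distal peaks (midpoint over 1 kb from every protein-coding TSS), peaks in the gene body, hotspot bases and motif matches, on GENCODE M21 and the RefSeq GRCm38.p6 sequence. Territories existed for 21716 of the 21728 genes. Python 3.11.15 and numpy 2.4.6 were used, and the interval functions were tested on simulated data.

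The members and lists were chosen with earlier results of these data known. Named are the 5 members, genes whose body reaches into a territory, and up to 4 genes with and 3 without a promoter peak in both replicates from each list, in list order. Added are genes with one in 1 replicate only, the 2 most alike genes of each member, and the promoter and 3 best-ranked shared distal peaks of each. Alternatives varied the overlap, the promoter window, the TSS, the distal distance, the score minimum, the territory and the replicates. Some genes and sequences that this rule selects are not shown.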

Additional observations from a re-analysis of the deposited data

How the results depend on the processing

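The count of 73 shared distal peaks became 47 when only the better-scoring 50% of each list was used, and 85 to 120 when 1 replicate was left out, 120 being all distal peaks of replicate 2. An overlap of at least 75 bp gave 69, distal peaks beyond 2500 bp 62, territories by any TSS 71 and the shortened replicate 2 list, chosen after seeing the data, 72. The 25743 hotspot bases found in both replicates became 28965 in replicate 1 alone and 45940 in replicate 2 alone. The 5 open promoters became 4 with the better-scoring 50%, where Bhlhe23 was lost, and the 4 open gene bodies ranged from 3 to 5. Leaving out a replicate removes the demand that a peak be shared. Open promoters, hotspot bases and all counts from replicate 1 alone can then only be equal or higher. Shared peaks are counted as replicate 1 peaks, and 2 of them can overlap 1 replicate 2 peak. A count of peaks from replicate 2 alone can therefore also be lower. Of 144 values recomputed per gene or in total, 125 stayed within 1.5 times. Many of the 144 are yes or no calls for a gene, which move only when the call changes. Among those that moved, the shared distal peaks of Olig3 went from 28 to 18 with the better-scoring 50%. In replicate 2 alone Olig3 had 50. No paired analysis was possible because the samples form 1 group. The lists hold no read counts, so a peak missing from 1 list is a peak not called there and not a measured absence of cutting.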

Other observations

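Noncoding genes covered 16 of the 73 shared distal peaks, 6 of them at Olig1 and 6 at Olig3. The share over all shared distal peaks was not computed here, so whether this is usual is unknown. Distances to neighbouring genes were taken between 5′-most start sites, not gene bodies. The nearest protein-coding neighbours were Ifnar2, an interferon receptor subunit gene 103 kb from Olig1, and 4932438H23Rik, 130 kb from Olig2. Olig3 lay between Tnfaip3, a regulator of inflammatory signalling at 341 kb, and Ifngr1, an interferon gamma receptor gene at 235 kb. Bhlhe22 lay between Cypt12 (106 kb) and Cyp7b1 (189 kb), whose body comes much closer and reaches into the Bhlhe22 territory. Bhlhe23 lay between Slc17a9 (51.6 kb), a vesicular nucleotide transporter gene, and Ythdf1 (144 kb), which encodes a reader of methylated RNA.

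Of the 73 shared distal peaks, 51 (69.9%) had a higher percentile in the replicate 2 list than in the replicate 1 list, against 64.2% of all shared distal peaks. The median gap between the percentiles was 6.61, against 6.13 over all. The lists differ in length, so this compares ranks and not signal. Hotspots at the ceiling of the deposited −log10 q value numbered 3, 5, 10, 4 and 5 in replicate 1 and 3, 8, 12, 4 and 7 in replicate 2, for Olig1, Olig2, Olig3, Bhlhe22 and Bhlhe23.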
